A study of Mus musculus with 2931 samples.

Results

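Nonproliferative embryonic EC are the endothelial cells (EC, the lining cells of blood and lymph vessels) of mouse distal lung that carry this subtype name in the submitters' annotation. The name held 313 of the 2931 cells, beside 9 other subtype names, and all of its cells were taken. Of these 313 cells, 134 came from the female and 168 from the male mouse of embryonic day E18.5, and the other 11 were scattered over 5 later mice. How the submitters drew the subtypes is not stated. They may rest on these same transcriptomes, so a fit of one name against another sizes a difference against the spread between mice and does not test that the name marks a cell type.

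The capillary bed of the lung is built before birth, in a fluid-filled organ that carries little blood and lies in fetal, low oxygen. Its capillary EC are commonly divided into Car4+ cells, broad thin cells that face the air spaces and are also called aerocytes, and Car4- cells, which line the rest of the capillaries and serve as their progenitors. Cells sense oxygen through hypoxia-inducible factors (HIF): prolyl hydroxylases such as Egln3 mark the HIF alpha subunits for breakdown when oxygen is present, and HIF in turn switches on genes that include Egln3 and Ankrd37 themselves. At birth air enters, blood flow through the lung rises steeply and these vessels relax.

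The study sampled lungs at E18.5 and, after birth, at P1, P7 and P21 (days) under a treatment named normal, and at P7 under hyperoxia, with 1 female (F) and 1 male (M) mouse name in each group. Strain, genotype and pooling are not given in the labels, so whether a mouse name is 1 animal is not known, and p-values measure the spread between these mice. Cells were sorted, mostly through a CD31 gate (an endothelial surface protein), and each was sequenced in a plate by a Tn5-based method without molecular identifiers. The 134 female and 168 male E18.5 cells held 95832667 and 136948689 reads, with medians of 649272 and 746356 reads and of 3344.5 and 2825 detected genes per cell. Levels are given as CPM, the usual per-library scale, computed on the summed reads of all cells of a mouse and subtype; it is not corrected for gene length, so levels are compared between cells and not between genes.

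At E18.5 these cells were the most numerous subtype of the lung endothelium, and after birth almost none carried the name. Of CD31-gate cells they made up 134 of 296 in the female mouse (45.3%, 95% exact binomial interval 39.5% to 51.1%) and 168 of 292 in the male mouse (57.5%, 51.6% to 63.3%). At P1 the shares were 2 of 315 cells (0.635%, 0.0770% to 2.27%) and 3 of 232 cells (1.29%, 0.267% to 3.73%). No cell of the P21 mice had the name, with 0 of 282 and 0 of 238 cells allowing shares of up to 1.06% and 1.26%. With 2 mice against 2, an exact permutation test cannot go below 0.333, so no test was made. The intervals cover counting error only. At E18.5 the rest were mainly proliferative EC (122 F and 84 M cells); no cell was labelled Car4+, and 13 cells, all of the female mouse, were labelled Car4-.

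The cells were endothelial by their markers, and defining genes of other lung cells were low. The summed level of Pecam1, Cdh5, Cldn5, Tie1, Erg and Emcn was 6987 CPM (F) and 7802 CPM (M), against 7646 and 7564 CPM in P1 Car4- cells. Immune markers (Ptprc, Cd68, Lyz2, Cd3e, Itgam) summed to 7.82 and 7.14 CPM, with 2 and 1 of the 5 at 0, and mesenchymal markers (Col1a1, Col1a2, Pdgfra, Pdgfrb, Dcn, Tbx4) to 3.23 and 7.81 CPM. The 7 lymphatic markers summed to 1241 and 1275 CPM, against 2270 and 2954 CPM in P1 Car4- cells; 83.0% and 74.7% of this was Lyve1, 2 of the 7 were at 0 in each mouse, and the lymphatic regulator Prox1 was read in 0.758% and 0.595% of cells at equal depth. Epithelial markers summed to 188 CPM (F) and 60.1 CPM (M), of which 99.8% and 99.9% were reads of Sftpc, a surfactant gene of alveolar type 2 cells; the sums were 32.7 and 33.7 CPM in proliferative EC, and 32.0 and 51.8 CPM in P1 Car4- cells. The part of these reads in the results was not tested.

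The 3 genes that mark these cells lie on the reverse strand of 3 chromosomes: Egln3 at chr12:54178981-54203860, Ankrd37 at chr8:45996902-46005707 and Stab2 at chr10:86841198-87008025 (GENCODE M21, GRCm38). Egln3 and Ankrd37 are textbook targets of HIF, which binds at a core of 5 bases, so the 250 bases before each RefSeq start site (GRCm38.p6) were searched for ACGTG and GCGTG on both strands. For Ankrd37 that start lies inside the GENCODE span above, which reaches to 46005707 through a longer transcript, and for Stab2 the window overlaps the first GENCODE exon. The windows of the 2 known HIF targets are shown 5′ to 3′ on the gene's strand, with capitals marking the matches.
Egln3, chr12:54203875-54204124 (-): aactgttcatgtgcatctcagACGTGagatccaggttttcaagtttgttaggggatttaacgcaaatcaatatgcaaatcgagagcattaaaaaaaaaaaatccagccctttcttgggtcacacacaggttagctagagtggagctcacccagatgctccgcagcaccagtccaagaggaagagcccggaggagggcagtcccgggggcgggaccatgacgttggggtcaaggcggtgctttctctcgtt
Ankrd37, chr8:45999851-46000100 (-): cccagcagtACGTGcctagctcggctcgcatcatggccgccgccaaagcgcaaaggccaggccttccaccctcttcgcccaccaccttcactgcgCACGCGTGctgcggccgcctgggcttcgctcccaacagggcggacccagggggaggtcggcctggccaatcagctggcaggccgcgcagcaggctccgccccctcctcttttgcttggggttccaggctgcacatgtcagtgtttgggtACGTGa
Egln3 had 1 match, at 229 to 225 bases before the start. Ankrd37 had 4, at 241 to 237, 155 to 151, 152 to 148 and 6 to 2 bases before the start, of which the middle pair overlap on opposite strands. The Stab2 window, chr10:87007943-87008192, held neither motif. Of 32851 promoters of the same length, 38.6% held at least 1 match and 6.58% at least 3, so a match is common and is a description of the letters only.

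Egln3, the HIF prolyl hydroxylase also called PHD3, was read in every E18.5 blood vessel subtype of the female mouse and was at or near 0 in postnatal capillaries. Its level was 132 and 72.5 CPM (F, M) in nonproliferative embryonic EC and 97.8 and 37.4 CPM in proliferative EC of the same mice. E18.5 venous EC (11 cells a mouse) had 234 and 25.9 CPM and arterial EC I (12 and 14 cells) 126 and 1.35 CPM. In all 4 the female mouse was the higher, and the ranges overlapped. At P1 the level was 0.0486 and 0 CPM in Car4- capillaries, on 4 reads in 303 cells, and 0 CPM in Car4+ capillaries of both mice. Outside the capillaries it did not end at birth: P1 venous EC had 17.5 and 17.5 CPM, and P1 lymphatic EC 23.5 and 46.6 CPM.

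Ankrd37, an ankyrin repeat protein and HIF target, was high in embryonic EC and lower but present after birth. It reached 652 and 397 CPM in nonproliferative embryonic EC and 402 and 186 CPM in proliferative EC of E18.5. Venous EC of that age had 239 and 37.6 CPM and arterial EC I 615 and 38.3 CPM. The female arterial value was thus near that of the female embryonic cells. P1 Car4- capillaries had 15.6 and 70.99 CPM and P1 Car4+ capillaries 39.1 and 40.9 CPM. Stab2, a scavenger receptor that takes up hyaluronan and is best known from liver sinusoids, was 137 and 53.02 CPM in nonproliferative embryonic EC and 60.2 and 58.5 CPM in proliferative EC. It was lower in E18.5 venous EC, with 15.1 and 5.80 CPM, and listed at 0 in both arterial subtypes. P1 Car4- capillaries had 0.0243 and 0.0807 CPM, whereas postnatal lymphatic EC ranged from 14.7 to 919 CPM. Stab2 was thus highest in the embryonic cells, dividing or not, and in lymphatic EC.

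**Figure D1:**
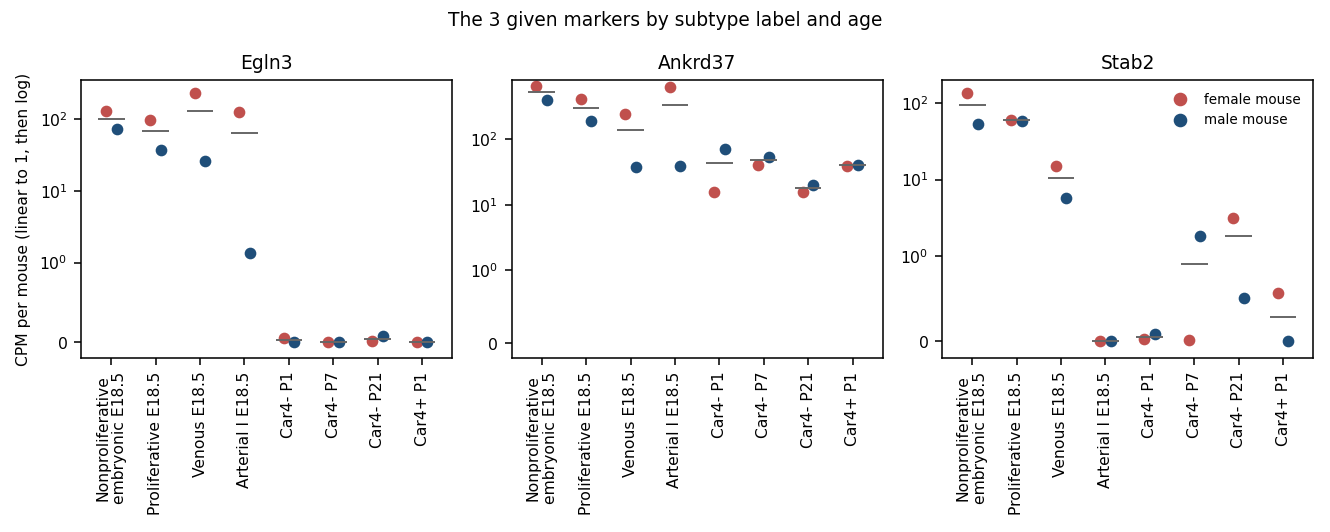
CPM of Egln3, Ankrd37 and Stab2 (y axis, linear to 1 and log above) in 8 combinations of subtype and age (x axis); a red point is the female mouse, a blue point the male mouse and the line their mean. All 3 genes lie far higher in nonproliferative embryonic EC (Egln3 132 and 72.5 CPM) than in P1 Car4- capillaries (Egln3 0.0486 and 0 CPM), while proliferative E18.5 EC lie near the embryonic level.

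Within the embryonic cells the 3 markers were spread unevenly. After each cell was thinned to 50000 reads (2 shallower female cells left out), Ankrd37 had a read in 78.8% (70.8% to 85.4%) of 132 female and 57.7% (49.9% to 65.3%) of 168 male cells. Egln3 had one in 38.6% (30.3% to 47.5%) and 18.45% (12.9% to 25.2%), and Stab2 in 35.6% (27.5% to 44.4%) and 19.05% (13.4% to 25.8%). Unthinned, the shares were 82.1% and 60.1% for Ankrd37, 50% and 21.4% for Egln3, and 40.3% and 26.2% for Stab2. All 3 markers were read in 13 of 132 female and 5 of 168 male cells, and none in 13 and 51. In P1 Car4- capillaries none was read in 163 of 180 and 107 of 122 cells, and no cell had all 3. In the proliferative EC of the E18.5 mice, Egln3 was read in 40.2% and 23.8% of cells, Stab2 in 21.3% and 25% and Ankrd37 in 68.9% and 53.6%, so the dividing cells carried the markers as well.

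A few cells carried most of the Egln3 and Stab2 signal. The 10 highest cells held 55.3% (F) and 71.1% (M) of the Egln3 reads, with single cells of up to 2128 and 1786 CPM, and 60.5% and 68.8% of the Stab2 reads. Ankrd37 was more even, with medians of 400.12 and 219 CPM per cell and 37.3% and 38.4% of reads in the 10 highest cells. Across cells, Spearman's rho of Egln3 with Ankrd37 was 0.08 (134 female cells) and 0.22 (168 male cells), which is too weak in sparse counts to be read as a relation. Stab2 and Aplnr, the apelin receptor of Car4- cells, gave 0.42 and 0.15. Cells of a mouse are not independent replicates and differ in depth, so these values are a description.

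Markers of Car4- capillaries were read unevenly, some in most of the cells and others in few. At 50000 reads Gpihbp1, which holds lipoprotein lipase on the capillary wall, was read in 85.6% and 89.3% of cells, Plvap, the diaphragm protein of fenestrae and caveolae, in 82.6% and 93.5%, and Aplnr in 64.4% and 71.4%. Over the cells of both mice at full depth, in contrast, Cxcl12 was read in 8.61%, Hpgd in 14.9%, Lpl, lipoprotein lipase, in 25.8% and Sema3c in 27.8%, against 32.01%, 80.9%, 51.8% and 73.9% of P1 Car4- cells. Of 10 Car4- markers a cell had a median of 6 (F) and 5 (M), against 8 and 7 in P1 Car4- cells. The medians were also 6 and 5 in E18.5 venous EC and in arterial EC I, and 6 and 6 in proliferative EC. This count therefore did not set the embryonic cells apart from other EC of the same mice. Car4 itself, the carbonic anhydrase that names the other capillary type, was read in 4.55% and 3.57% of cells, against 96.6% and 94.1% of P1 Car4+ cells. Ednrb, an endothelin receptor otherwise used as a Car4+ marker, was read in 52.3% and 57.7%. Its summed level, given below, overlapped that of P1 Car4- capillaries and lay far below that of P1 Car4+ cells. The median was 2 of 9 arterial markers in both mice (6 and 5 in arterial EC I) and 1 of 8 venous markers (4 and 4 in venous EC).

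Few embryonic cells held Car4: in each mouse 6 cells had a read at equal depth, and the 10 highest cells held 99.99% (F) and 100% (M) of its reads. Ednrb was read in 4 and 4 of these 6 cells, against 51.6% and 57.4% of the cells without a Car4 read, and Apln, the apelin ligand, in 1 and 0 (15.9% and 8.02% without). In the female mouse Prx, periaxin, was read in 5 of 6 (43.7% without), Emp2 in 2 (1.59%), Plvap in 2 (84.9%) and Aplnr in 2 (65.9%). In the male mouse Prx was read in 1 of 6 (30.9% without), Emp2 in 0 (3.70%), Plvap in 6 (93.2%) and Aplnr in 5 (71.0%). These shares rest on 6 cells in each mouse. For comparison, Car4 had a read at that depth in 0 of 11 and 0 of 10 venous and 0 of 12 and 0 of 13 arterial EC I cells of the same mice, and in 10.7% and 4.76% of their proliferative cells.

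By the number of proliferation genes read per cell, the embryonic cells lay far below proliferative EC and slightly above P1 Car4- capillaries. Mki67 was read in 21.2% and 10.7% of cells and Top2a in 25% and 16.1%, against 98.4% and 91.7% for Mki67 in proliferative EC of the same mice and 2.22% and 1.64% in P1 Car4- cells. Pcna, the sliding clamp of replication, was read in 44.7% and 41.7% of the embryonic cells, Lig1, a replicative DNA ligase, in 38.6% and 40.5%, and Mcm6, a helicase subunit, in 34.8% and 23.2%. The Pcna share was near that of P1 Car4- cells (40% and 31.1%), and the Lig1 share above theirs (15% and 5.74%). A cell had a median of 2 (F) and 1 (M) of the 14 proliferation genes, against 11 and 11 in proliferative EC and 1 and 0 in P1 Car4- capillaries.

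**Figure D2:**
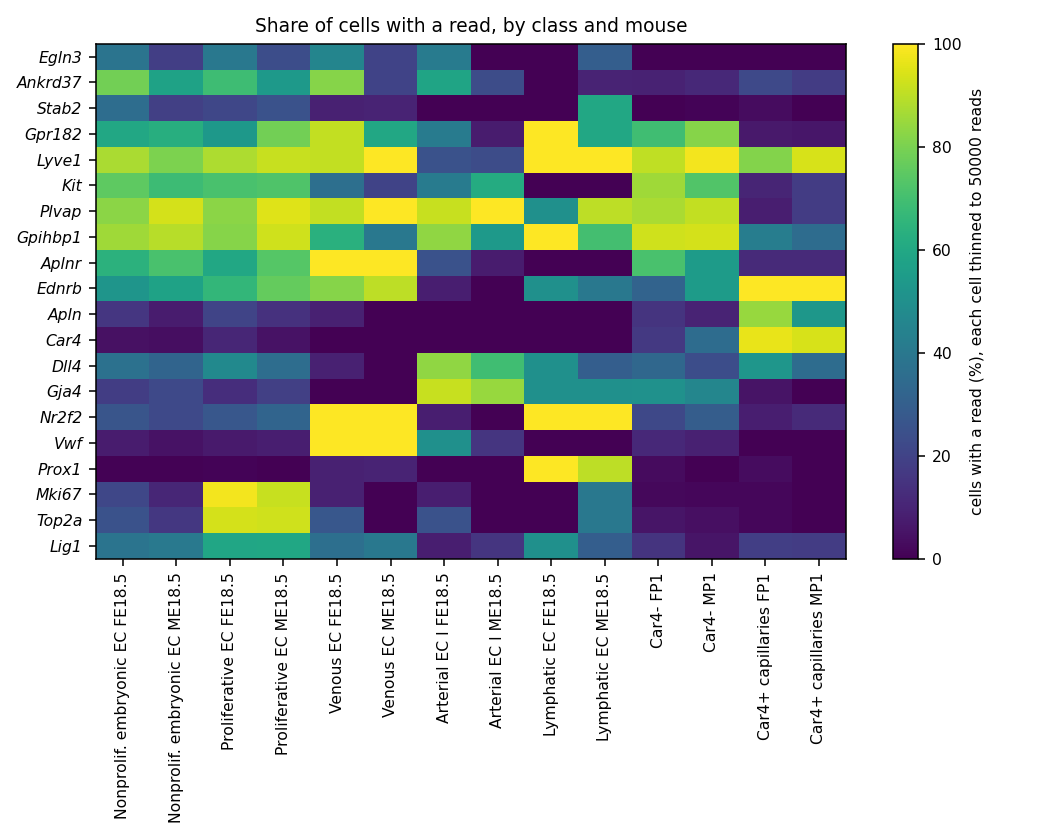
Percent of cells with a read after thinning to 50000 reads (colour), for 20 genes (rows) in 14 combinations of subtype and mouse (columns). Nonproliferative embryonic EC share Gpihbp1 (85.6% and 89.3%) with Car4- capillaries, have Ednrb in part of the cells, and have Car4 in 4.55% and 3.57% of cells.

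Nonproliferative embryonic EC were then set against the Car4- capillaries of the next sampled age, P1 (181 F and 122 M cells). The comparison asks how the embryonic cells differ from the general capillary cells seen a day after birth; age and subtype name differ together and cannot be told apart. With edgeR's quasi-likelihood test, 74 of 14967 genes were called at an adjusted p (Benjamini-Hochberg) under 0.05, which is 0.494% of genes (0.0601% higher and 0.434% lower in embryonic EC). The calls were lopsided: 9 genes were higher and 65 lower, although at an unadjusted p under 0.05 there were 581 higher and 829 lower genes and the median log2 difference of all genes was -0.02. The female E18.5 and P1 mice shared a sequencing run and the male mice did not. No called gene overlapped between groups, beside 18.6% (higher) and 16% (lower) of all genes tested that did not overlap.

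Beside the 3 markers, the naming rule gave Lig1, Cks1b, Plxnd1 and Cyr61 as higher in the embryonic cells. Lig1 stood at 139 and 137 CPM against 22.1 and 20.01 CPM at P1, a log2 difference of 2.63 ± 0.50 (SE) (edgeR adjusted p 0.0290). Cks1b, a subunit of cyclin-dependent kinases, had 108 and 195 CPM against 30.2 and 30.7 CPM (log2 difference 2.23, edgeR adjusted p 0.0479). Plxnd1, a semaphorin receptor that guides sprouting vessels, had 243 and 202 against 70.4 and 45.2 CPM and was read in 83.8% and 50.5% of cells (log2 difference 1.88, edgeR adjusted p 0.0462). The naming rule takes only genes whose mice do not overlap between the groups. Cyr61, a secreted matrix-associated protein, had 351 and 564 CPM against 121 and 47.5 CPM (log2 difference 2.43, edgeR adjusted p 0.0493); the P1 mice differed from each other. Ankrd37 gave 3.40 ± 0.69 (SE) (edgeR adjusted p 0.0431), Stab2 10.61 (0.0290) and Egln3 12.01 (0.00111).

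These 7 genes are those of the naming rule. Of them, Egln3 alone stayed called under each of 18 alternative settings; the others were near the threshold. Stab2 missed it without any 1 of the 4 mice compared (edgeR adjusted p 0.0636 to 0.178), as did Lig1 (0.0919 to 0.162). Ankrd37 missed it without the female E18.5 (0.165), male E18.5 (0.089) or female P1 mouse (0.122). The P7 mice enter only the estimate of spread, yet without the female or the male P7 mouse Ankrd37 (0.0877 and 0.0843) and Lig1 (0.0602 and 0.0594) also missed. Other settings that ended a call were sex as a replicate block for Stab2 (0.0519), and for Ankrd37 the CD31 gate (0.0646), limma (0.0623) and the Early Car4- name alone (0.0685). Cyr61, Cks1b and Plxnd1 lost the call in 12, 13 and 15 of the 18 settings, mostly when any 1 mouse was left out, with adjusted p of up to 0.313, 0.447 and 0.319; no direction turned.

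The genes lower in embryonic EC were more numerous, and those of the naming rule kept their calls more often than the named higher genes. Over all 74 calls of both directions, DESeq2 kept 74, the CD31 gate alone 56 and limma 33. Hpgd, the dehydrogenase that inactivates prostaglandins (chr8:56294585-56321043, forward strand), had 25.4 and 17.5 CPM against 808 and 285 CPM and was read in 14.9% of embryonic and 80.9% of P1 cells (log2 difference -4.70 ± 0.56 (SE), edgeR adjusted p 0.000915). Pde3a, a phosphodiesterase that degrades cyclic AMP, had 3.36 and 3.13 against 181 and 121 CPM (-5.61 ± 0.43 (SE), edgeR adjusted p 1.2e-05). Tmem100, a membrane protein of arterial and capillary EC that depends on BMP and ALK1 signalling, had 276 and 87.6 against 2745 and 2205 CPM and was read in 24.5% and 99.01% of cells (-3.86 ± 0.54 (SE), edgeR adjusted p 0.00347). For each, the lower of the P1 mice stood many times above the higher embryonic mouse.

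Further genes in this direction were Fmo1, a flavin monooxygenase, with 22.8 and 19.2 against 493 and 237 CPM (log2 difference -4.16), and Sema3c, a secreted guidance protein, with 14.3 and 3.71 against 401 and 189 CPM (-5.09). Emp2, a tetraspan membrane protein, had 25.4 and 7.52 against 412 and 764 CPM (-5.32), and Ly6a, the surface protein Sca-1, 252 and 163 against 1511 and 3291 CPM (-3.69). Tppp3, a tubulin-binding protein, and Wfdc1, a secreted protein, stood at 2.55 and 6.64 and at 7.94 and 10.9 CPM in embryonic EC, against 154 and 476 and 189.6 and 584 CPM. Bmp6, a ligand of the BMP pathway, had 1.07 and 4.04 against 126 and 23.3 CPM (-4.82); here the P1 mice were far apart. Of the 10 genes on this side, 8 kept their call in all 18 settings. The exceptions were Ly6a without the male E18.5 mouse (edgeR adjusted p 0.0709) and Bmp6, which missed it without the female E18.5 mouse (0.103), without the female P1 mouse (0.052) and with limma (0.118).

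Among called genes outside the naming rule, picked after their values were seen, was Epas1 (chr17:86753700-86833410, forward strand), which encodes HIF-2 alpha, the HIF subunit typical of endothelium. It had 256 and 169 CPM in embryonic EC against 1815 and 1273 CPM at P1 (log2 difference -2.94 ± 0.41 (SE), edgeR adjusted p 0.00347) and was read in 69.2% and 99.01% of cells. So the embryonic cells had the higher level of Egln3, whose protein targets HIF alpha subunits, and the lower level of the transcript of one of these subunits. Bmpr2, a BMP receptor, had 132 and 109 against 577 and 286 CPM (edgeR adjusted p 0.0431), and Smad6, an inhibitor of BMP signalling, 26.8 and 13.04 against 149 and 119.6 CPM (edgeR adjusted p 0.0198). Aqp1, a water channel, had 83.9 and 66.8 against 1052 and 518 CPM, and the chemokine Cxcl12 32.6 and 15.8 against 274 and 185 CPM. Eln, elastin, had 38.8 and 13.03 against 158 and 141 CPM, and Mfap2, a microfibril protein, 250.01 and 353 against 1249.5 and 2126 CPM; both were lower in the embryonic cells of both mice.

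Hs3st1, a heparan sulfate sulfotransferase on chromosome 5 (chr5:39613935-39755475, reverse strand), had no read in the 302 embryonic cells. P1 Car4- capillaries had 40.8 and 56.7 CPM of it, so it was at least 3842-fold lower in embryonic EC, taking 3 reads over both mice of the group as the floor (edgeR adjusted p 1.82e-06). The reverse held for Neil3, a DNA glycosylase of dividing cells, with 6.86 and 9.41 CPM in embryonic EC and no read in the P1 Car4- cells of either mouse (edgeR adjusted p 0.0462). Neil3 was read in 5.30% of embryonic cells, so few cells carry this difference. H2-Ab1, an MHC class II chain, was the other higher gene outside the rule, with 7.01 and 1.68 against 0.0122 and 0 CPM and a read in 1.99% of embryonic cells.

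**Figure D3:**
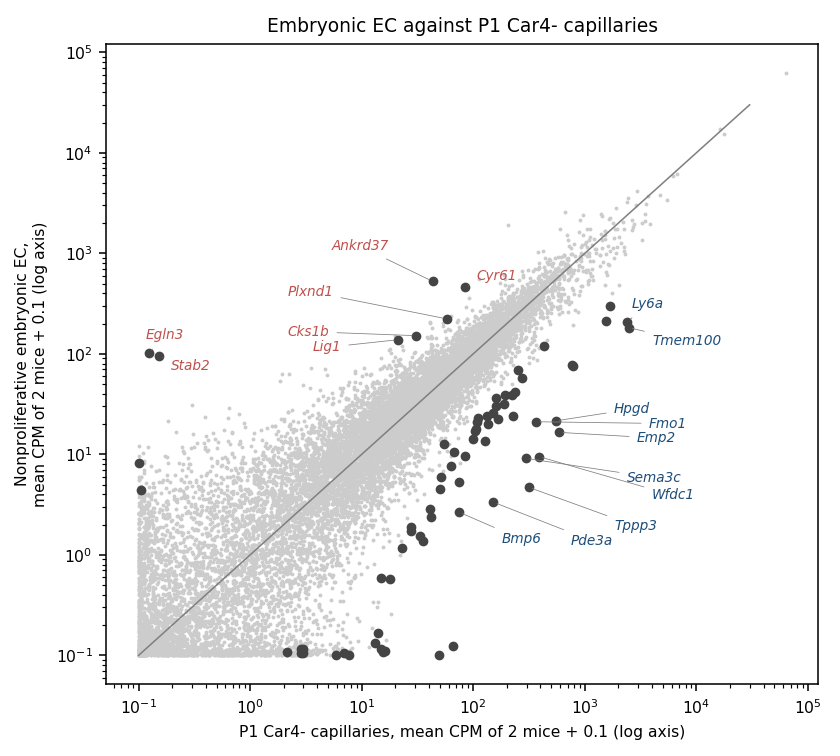
Mean CPM of 2 mice plus 0.1 in P1 Car4- capillaries (x, log axis) against nonproliferative embryonic EC (y, log axis) for each gene tested; dark points are the 74 called genes, with the genes of the naming rule labelled in red (higher in embryonic EC) or blue (lower). Most called genes lie below the line of equality, among them Hpgd (25.4 and 17.5 against 808 and 285 CPM), and Egln3 and Stab2 lie alone at the upper left.

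In the Car4- capillaries of later ages some of these differences were larger. The sums pool the Early and Late Car4- names, and their mix was not held fixed over ages. At P1 it was 160 Early and 21 Late cells in the female mouse and 120 and 2 in the male mouse. Of all cells of the P21 mice, 282 of 348 and 238 of 359 came through the CD31 gate. Age, name and gate cannot be told apart here. Hpgd went from 25.4 and 17.5 CPM in embryonic EC to 808 and 285 CPM at P1, 2925 and 2928 CPM at P7, and 2950.4 and 4035 CPM at P21. Sema3c had 401 and 189 CPM at P1, 619 and 743 CPM at P7, and 1678 and 1355 CPM at P21, and Fmo1 493 and 237, 591 and 773, and 1624 and 1655 CPM. These 3 genes were higher at each later age in both sexes. Tmem100 rose less after P1, with 2745 and 2205 CPM at P1 and 3285 and 4170.04 CPM at P21, although both P21 mice lay above both P1 mice. Epas1 had 1815 and 1273 CPM at P1 and 1569 and 1436 CPM at P7, and these 2 ages overlapped.

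Other genes did not follow one course. Ly6a had 1511 and 3291 CPM at P1, 451 and 674 CPM at P7, and 2803 and 2639 CPM at P21, so P7 lay between the embryonic level (252 and 163 CPM) and that of P1. Cyr61, which was lower at P1 than in embryonic EC, had 193 and 228 CPM at P7 and 384 and 864 CPM at P21, the last overlapping the embryonic 351 and 564 CPM. Plxnd1, in contrast, stayed at 54.4 to 71.9 CPM at P7 and 55.8 to 61.3 CPM at P21, below the embryonic 243 and 202 CPM. No test was made over these ages.

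**Figure D4:**
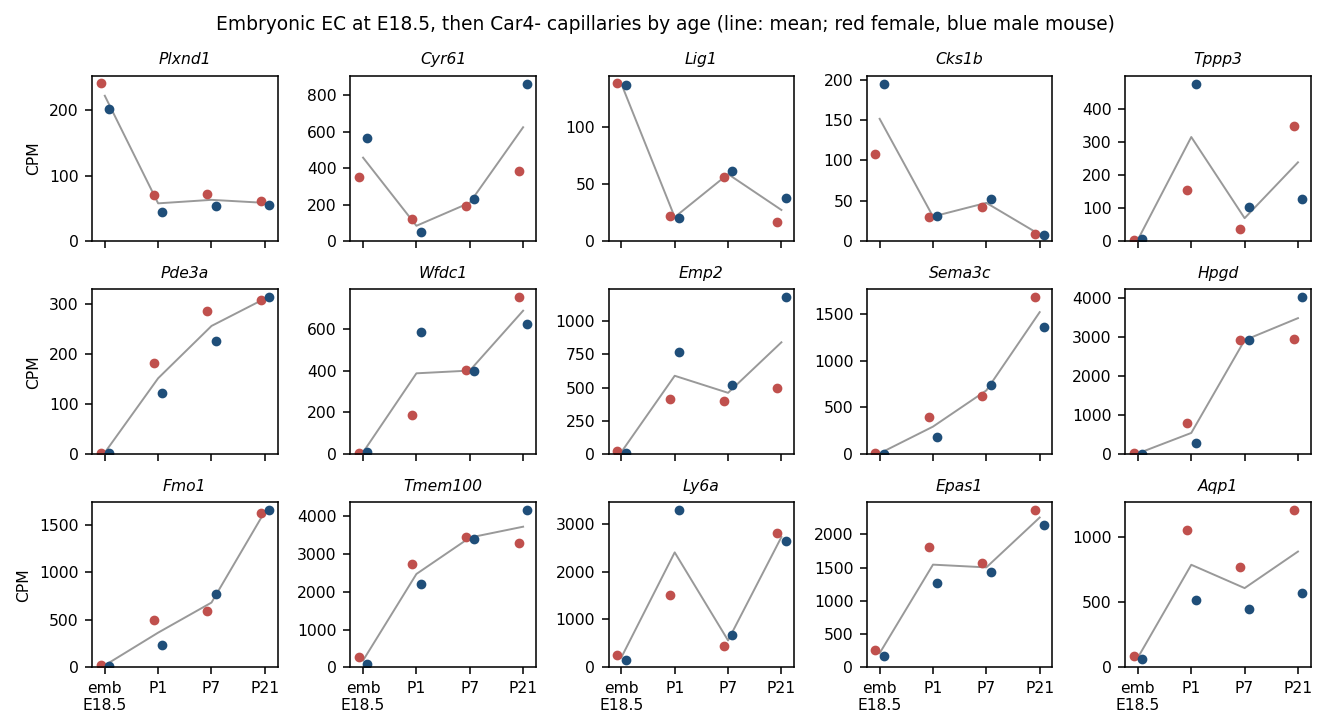
CPM of 15 genes in nonproliferative embryonic EC at E18.5 and in Car4- capillaries at P1, P7 and P21 in normal air; red points are female mice, blue points male mice and the line joins their means. Hpgd climbs from 25.4 and 17.5 CPM to 2950.4 and 4035 CPM, Tmem100 rises less after P1, and Plxnd1 is highest at E18.5. The Car4- values pool the Early and Late names and all sort gates.

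Gene groups chosen for this tissue, with earlier results of these data known, were counted in the same comparison, beside a median log2 difference of -0.02 over all 14967 genes. Of 21 hypoxia response genes 17 were higher in embryonic EC, and 2, Egln3 and Ankrd37, passed the test (median log2 difference 1.08). Both are also given markers of these cells and count among the 17, and no other gene of the list passed. Pdk1, a kinase that keeps pyruvate out of mitochondria, had 45.9 and 22.7 against 5.74 and 2.19 CPM and did not pass (edgeR adjusted p 0.353). Slc2a1, the glucose transporter GLUT1, had 23.9 and 43.5 against 13.7 and 4.51 CPM, and Egln1, the main oxygen-sensing hydroxylase, 61.7 and 30.8 against 18.3 and 14.7 CPM. Vegfa, the growth factor and a known HIF target, lay the other way, with 8.22 and 2.07 against 23.9 and 15.3 CPM (edgeR adjusted p 0.417).

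All 16 glycolysis genes had higher values in embryonic EC and 14 did not overlap between groups (18.6% of all genes did not overlap in this direction), but 0 passed edgeR's test and 6 had an unadjusted p under 0.05 (median log2 difference 1.18). Eno1, an enolase, had 209.8 and 371 against 98.4 and 74.9 CPM (edgeR adjusted p 0.103), and Pkm, pyruvate kinase, 616 and 597 against 252 and 129 CPM (edgeR adjusted p 0.110). Ldha, lactate dehydrogenase, had 744 and 1352 against 446 and 405 CPM. Eno1 and Ldha have near-identical copies elsewhere in the genome, so their counts are uncertain. Proliferation genes were also all higher, 14 of 14 with 0 called by edgeR and 6 at an unadjusted p under 0.05 (median 2.48).

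Genes of vascular tone and maturation were mostly lower. Of 13, 11 lay lower and 2, Pde3a and Hpgd, passed the test (median log2 difference -0.81). Calcrl, the receptor of adrenomedullin and CGRP, had 629 and 884 against 1754 and 1509.97 CPM (edgeR adjusted p 0.366) and Acvrl1, the receptor ALK1, 523 and 429 against 1075 and 803 CPM (edgeR adjusted p 0.428); neither passed. Interferon and MHC class I genes were lower in 11 of 13, with 0 called by edgeR and 4 at an unadjusted p under 0.05 (median -0.78). H2-K1, an MHC class I heavy chain, had 86.5 and 139.9 against 418 and 352 CPM (edgeR adjusted p 0.0581), and B2m, its light chain, 843 and 1191 against 1705 and 2069 CPM; reads of the H2 genes can be shared between their close copies.

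Arterial markers were lower in 8 of 9, with Mgp, a calcification inhibitor of vessel walls, passing the test at 0.0104 and 0.0219 against 2.13 and 3.67 CPM (median -1.12). Car4- markers were lower in 9 of 10 and Car4+ markers in 9 of 10, with medians of -0.90 and -1.85. Those that passed were Cxcl12, Sema3c and Hpgd among the Car4- markers and Emp2 among the Car4+ markers. Gpihbp1 (1400.3 and 2224 against 2098 and 3278 CPM), Plvap (629 and 1047 against 1526 and 820.5 CPM) and Ednrb (318 and 392 against 221 and 442 CPM) overlapped between the ages or differed little beside the mice's spread.

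In the VEGF, Tie and Notch list 8 of 18 genes were higher and Plxnd1 passed (median -0.12). Nrp2, a co-receptor for VEGF-C and semaphorins, had 154 and 71.03 against 23.5 and 12.3 CPM (edgeR adjusted p 0.230). Kdr, the main VEGF receptor, had 906 and 833 against 587 and 374 CPM, and Tek, the angiopoietin receptor, 445 and 228 against 719.7 and 484 CPM; neither passed. Of the basement membrane list 7 of 12 were higher and 0 called by edgeR, with 5 higher and 2 lower at an unadjusted p under 0.05 (median 0.63). Of its 5 laminin chains, beta 1 (Lamb1) had 264 and 141 against 37.9 and 43.1 CPM, alpha 4 (Lama4) 269 and 186 against 72.6 and 42.4 CPM and gamma 1 (Lamc1) 238 and 79.2 against 89.5 and 48.1 CPM. Beta 2 (Lamb2) had 46.9 and 20.96 against 77.3 and 84.6 CPM and alpha 5 (Lama5) 50.6 and 35.7 against 96.6 and 76.6 CPM. None of the 5 passed the test, and the Lamc1 values overlapped between the groups.

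The venous, lymphatic, endothelial, cell cycle exit, imprinted growth, scavenger receptor and immediate early lists had medians between -0.87 and 0.78. Of imprinted growth genes 7 of 10 were higher and 0 called by edgeR, with Mest, an imprinted hydrolase, at 1741 and 1325 against 886 and 494 CPM and Grb10, an adaptor that dampens insulin signalling, at 579.8 and 425 against 123 and 225 CPM. Of the stabilin and scavenger receptors 6 of 10 were higher and Stab2 alone passed (median 0.21). Lyve1, a hyaluronan receptor, lay the other way with 1029 and 953 against 2056 and 2546 CPM, and Cd36, a fatty acid receptor, had 298 and 227 against 1145 and 577 CPM; neither passed.

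**Figure D5:**
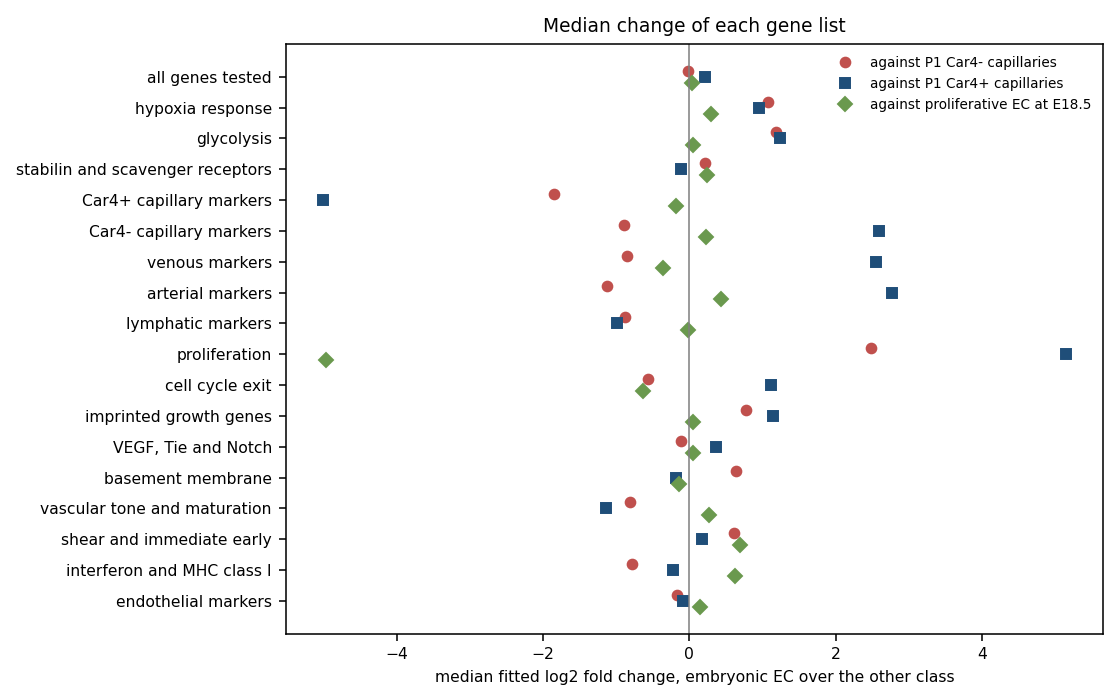
Median fitted log2 difference of nonproliferative embryonic EC (x axis) for gene lists and for all genes tested (rows), against P1 Car4- capillaries, P1 Car4+ capillaries and E18.5 proliferative EC (symbols). The given markers and the epithelial, mesenchymal, immune and red blood cell markers are not drawn. Against P1 Car4- capillaries the proliferation (2.48), glycolysis (1.18) and hypoxia (1.08) lists have the highest medians, and all genes tested lie at -0.02.

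Against P1 Car4+ capillaries (59 F and 17 M cells), most called genes were lower in embryonic EC, the Car4+ markers among them. With edgeR, 108 of 13315 genes were called (0.811%; 0.0451% higher and 0.766% lower in embryonic EC), 6 higher and 102 lower, beside 599 higher and 585 lower genes at an unadjusted p under 0.05. This comparison shares its embryonic sums with the one before. Of the 10 Car4+ markers 9 were called lower (median log2 difference -5.01, all genes 0.21), but these markers define the P1 cells by name. Car4 had 132 and 48.5 CPM in embryonic EC and 4271 and 3397 CPM in P1 Car4+ cells (-5.67 ± 0.64 (SE), edgeR adjusted p 0.000345). Ednrb had 318 and 392 against 2826 and 3344 CPM (-3.37 ± 0.46 (SE), edgeR adjusted p 0.00159), and Tbx2 19.8 and 23.2 against 701 and 657 CPM. Kdr was the marker not called, with 906 and 833 against 2616 and 1219 CPM. Both mice of a group lay close together in Ednrb and Tbx2, and the groups did not overlap.

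By the naming rule the lower genes were led by Hs3st1, with no embryonic read against 166 and 43.2 CPM (at least 10221-fold), and Krt80, a keratin, with none against 49.1 and 67.04 CPM (at least 4193-fold). Emp2 had 25.4 and 7.52 against 3728 and 3029 CPM, Tppp3 2.55 and 6.64 against 986 and 2229 CPM and Ifitm10, a relative of the interferon-induced membrane proteins, 0.0417 and 0.00730 against 88.9 and 141 CPM. The carbohydrate sulfotransferases Chst1 and Chst2 had 2.12 and 0.971 and 1.00 and 7.57 CPM in embryonic EC against 318 and 192 and 512 and 433 CPM. Hopx, a homeodomain protein without DNA binding, had 1.45 and 1.43 against 116 and 164 CPM, Lmo7, a junction-associated protein, 2.66 and 0.606 against 201 and 100.4 CPM, and Pard6g, a polarity protein, 1.69 and 0.0803 against 54.2 and 79.04 CPM. Of these 10, Pard6g alone lost its call in a setting, without the male E18.5 mouse (edgeR adjusted p 0.0823).

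The 6 genes higher than in P1 Car4+ cells were Cks1b, Gpr182, Itga6, Ptprb, Ifitm3 and Gpihbp1. Gpr182, a receptor of sinusoidal and lymphatic EC that scavenges chemokines, had 411 and 408 CPM against 3.48 and 3.95 CPM (6.53 ± 1.18 (SE), edgeR adjusted p 0.0134). Its P1 Car4- level, 364 and 373 CPM, was close to that of the embryonic cells. Itga6, a laminin receptor chain, had 712 and 452 against 12.1 and 2.24 CPM, and Ptprb, the phosphatase VE-PTP, 752 and 514 against 70.9 and 10.8 CPM. Cks1b had 108 and 195 CPM against no read in 76 Car4+ cells, at least 2572-fold (edgeR adjusted p 0.0455). All 6 lost the call without the male P1 mouse, whose Car4+ sum held 17 cells: Ptprb 0.225, Gpihbp1 0.117, Ifitm3 0.239, Itga6 0.21, Cks1b 0.128 and Gpr182 0.0663 (edgeR adjusted p). Leaving out an E18.5 mouse ended the calls of Cks1b (0.129), Gpihbp1 (0.306) and Ifitm3 (0.0859) without the male, of Itga6 (0.0926) without the female, and of Gpr182 (0.0552 and 0.0839) and Ptprb (0.137 and 0.0559) without either; without the female P1 mouse Cks1b (0.0824) and Gpihbp1 (0.124) missed as well. Gpihbp1 also missed without either P7 hyperoxia mouse (0.0571 and 0.062) and with RLE normalization (0.0684). Egln3 had no read in P1 Car4+ cells and was at least 1564-fold higher in embryonic EC, with an edgeR adjusted p of 0.0514.

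Within E18.5 the sums of a mouse share its age and run, and the fewest genes separated the embryonic cells from proliferative EC. With edgeR and the mouse as a block, 0 of 13271 genes were called (0%), with 75 higher and 176 lower at an unadjusted p under 0.05; limma called 0 and DESeq2 78, of which 69 were lower. The lowest edgeR adjusted p was 0.102, for Ube2c, a mitotic ubiquitin-conjugating enzyme, with 4.55 and 10.97 against 1000.2 and 1312 CPM. All 14 proliferation genes were lower (median log2 difference -4.97, all genes 0.04), which follows from the names of the subtypes. Mki67 had 38.6 and 32.03 against 2226 and 784 CPM and Top2a 68.5 and 71.4 against 2431 and 1889.8 CPM. The helicase genes Mcm5 (124 and 61 against 167 and 90 CPM) and Mcm6 (173 and 74.01 against 151 and 154 CPM) differed far less, and their values overlapped between the subtypes.

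Of 9 cell cycle exit genes 7 were lower than in proliferative EC and 2 higher (median log2 difference -0.63). Values did not overlap in 6 (lower) and 1 (higher) of them, beside 15% (lower) and 18% (higher) of all 13271 genes. With edgeR 0 were called, and 0 lower and 1 higher had an unadjusted p under 0.05. Cdkn2c, an inhibitor of CDK4 and CDK6, had 5.90 and 0.0730 CPM in the nonproliferative against 70.3 and 77.4 CPM in the proliferative cells, and its relative Cdkn2d 53.96 and 63.7 against 187 and 405 CPM. Btg2, an antiproliferative early response gene, had 2045 and 1467 against 935 and 620.2 CPM (unadjusted p 0.0332 by edgeR). None of the 3 passed the adjusted threshold.

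Against E18.5 venous EC (11 cells in each mouse), 21 genes were called by edgeR (0.158% of 13271; 0.113% higher and 0.0452% lower), 15 higher and 6 lower. Values did not overlap, higher or lower, in 38.1% and 9.86% of all genes. Venous markers were lower in 6 of 6 with 1 called (median log2 difference -4.35), and Car4- markers were 6 higher and 4 lower with 1 called each way (median 0.21). Arterial markers were higher in 7 of 9 and proliferation genes in 13 of 14, with 2 called in each list (medians 2.33 and 5.42). Dll4, a Notch ligand of arterial and sprouting cells, had 176 and 101 CPM against 1 read in the 22 venous cells (0.0975 and 0 CPM). Rgcc, a cell cycle regulator, had 1410.5 and 2049.96 against 35.02 and 61.9 CPM (5.03 ± 0.37 (SE), edgeR adjusted p 0.00873), and Ccnd1, cyclin D1, 847 and 757 against 18.6 and 25 CPM (5.03 ± 0.41 (SE), edgeR adjusted p 0.0134). The naming rule required that the values of these genes not overlap between the subtypes.

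Gpihbp1 had 1400.3 and 2224 against 87.98 and 162 CPM (edgeR adjusted p 0.0214), and Col4a1, a collagen of the basement membrane, 1742 and 1055 against 109.7 and 119 CPM (edgeR adjusted p 0.0197). Ptp4a3, a phosphatase, had 609.9 and 525 against 40.2 and 31.8 CPM, Gpm6b, a membrane glycoprotein, 115 and 103 CPM against no read, and Pcsk5, a proprotein convertase, 157 and 109.6 against 0.195 and 0.335 CPM. Lower were Vwf, von Willebrand factor, with 12.6 and 24.1 against 1927 and 3083 CPM (-7.23 ± 0.75 (SE), edgeR adjusted p 0.0264), and Fbln5, an elastic fibre protein, with 10.1 and 3.31 against 1336 and 1047 CPM. Ptprb had 752 and 514 against 3572 and 1802 CPM, a call that was lost without the mouse as a block (edgeR adjusted p 0.178); with limma Gpihbp1 (0.0675) and Pcsk5 (0.0676) were not called. The median gene was 0.57 higher on the log2 scale in this comparison (0.38 with RLE normalization), so the higher side is to be read against that shift.

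Against E18.5 arterial EC I (12 F and 14 M cells), 2 genes were called by edgeR (0.0151%; 0.00754% higher and 0.00754% lower), with 1045 higher and 171 lower at an unadjusted p under 0.05 and a median shift of 0.68 (0.50 with RLE); values did not overlap in 38.7% (higher) and 8.15% (lower) of genes. Rgcc was higher in embryonic EC, with 1410.5 and 2049.96 against 109.98 and 105 CPM (3.80 ± 0.35 (SE), edgeR adjusted p 0.0493), and Tm4sf1, a tetraspan protein, lower, with 416 and 553 against 2894 and 4918 CPM (-3.12 ± 0.29 (SE), edgeR adjusted p 0.0493). Both calls were lost with RLE normalization (0.061 and 0.0556) and without the mouse as a block (0.0828 and 0.123).

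The same ages were compared over all EC of a mouse with no use of the subtype names. With edgeR 80 of 16348 genes were called (0.489%; 0.0551% higher and 0.434% lower at E18.5), and values did not overlap in 17.1% (higher) and 18.8% (lower) of genes. These sums also hold the proliferative and larger-vessel cells, and the E18.5 sums include the embryonic cells above. Hpgd (22.4 and 24.5 against 572 and 183 CPM), Sema3c (16.9 and 3.05 against 310.4 and 101 CPM), Fmo1 (23.1 and 22.2 against 425 and 155 CPM) and Epas1 (273 and 217 against 1363 and 954 CPM, edgeR adjusted p 0.0131) were lower at E18.5 here too. Hs3st1 was lower by -4.45 on the log2 scale (4.72 and 2.81 against 88.5 and 71.1 CPM, edgeR adjusted p 0.000300). Ankrd37 was higher (513 and 291 against 17.7 and 64.4 CPM, edgeR adjusted p 0.0463), but missed the threshold in 8 of 17 alternative settings. Without the male E18.5 mouse Hpgd (0.0885), Sema3c (0.0737) and Fmo1 (0.0665) missed it as well, and Hpgd without the female (0.0873).

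Egln3 and Stab2 were not called in this label-free comparison. Egln3 had 126 and 54.8 against 3.56 and 8.81 CPM (edgeR adjusted p 0.490) and Stab2 84.3 and 51.6 against 4.91 and 6.79 CPM (edgeR adjusted p 0.457). The E18.5 values lay above those of P1 in both genes. Of the P1 Stab2 reads, lymphatic EC held 769 of 791 and 1465 of 1507. H2-K1 passed here, with 71.9 and 109 against 399 and 309 CPM (edgeR adjusted p 0.0351), as did Car4, with 68.2 and 32.1 against 1053 and 427 CPM (edgeR adjusted p 0.0140), in mice with no Car4+ cell at E18.5 and 59 and 17 at P1. The Car4 call was lost without the female E18.5 (0.0857), male E18.5 (0.191) or female P1 mouse (0.0714).

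The female and male embryonic cells were compared as 1 mouse each, with no test, and sex and sequencing run cannot be told apart. Of 3921 genes with at least 50 CPM and a read in at least 25% of cells of the higher mouse, 3063 (78.1%) lay within 2-fold and 74 (1.89%) were at least 4-fold apart. Of these 74, 60 were higher in the female and 14 in the male mouse, and 67 lay on the same side in proliferative EC. Xist, the RNA of the inactive X chromosome, had 291 and 0.0219 CPM (F, M) and the Y gene Ddx3y 0.0313 and 64.9 CPM, as the sex labels state. Beyond the sex chromosomes the female mouse led in Ppp6r1, a phosphatase subunit (96.1 and 4.25 CPM), and Usp25, a deubiquitinase (64.6 and 4.67 CPM), and the male mouse in Gsdmd, a pore-forming protein (26.6 and 133 CPM), and Pex2, a peroxisome protein (22.7 and 115 CPM).

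Most of the 11 cells with the embryonic name in later mice lacked the markers. Pecam1 and Cdh5 were read in 11 of 11, but 1 cell of the male hyperoxia mouse had 1.33 and 0.667 CPM of them and no Plvap read; Plvap was read in 9 and Epas1 in 9, whereas Ankrd37 was read in 3, Egln3 in 1 and Stab2 in 1. Of genes higher in P1 Car4- capillaries, Hpgd was read in 1 of the 11, Tmem100 in 4, Ly6a in 8 and Fmo1 in 9. The 11 cells came from the P1 mice (2 F and 3 M cells), the female P7 mouse (1) and the hyperoxia mice (2 F and 3 M). In the hyperoxia mice they made up 0.755% and 1.18% of CD31-gate cells. Their number sets no difference between hyperoxia and normal air, where the P7 mice had 1 of 320 and 0 of 200 cells.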

How the data were processed

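Values are raw counts of reads, as the authors deposited them, with 1 column per cell; per the submitters' processing notes STAR 2.5.2b and HTSeq 0.10 were used. Those notes name GRCh38, a human build, for these mouse samples, so positions are those of GENCODE M21 on GRCm38 (369 of 370 symbols of named, called and list genes matched), not of the counting. The table has 18072 symbols, 103 without a read, and each cell is a library of its own. Subtype names are the submitters'; no cells were clustered, filtered or tested for doublets, and how the submitters treated doublets is not given in the sources used here.

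Reads were summed per mouse and subtype (at least 8 cells) and tested with edgeR 4.0.16 (R 4.3.3) by its quasi-likelihood test, with TMM normalization, filterByExpr and Benjamini-Hochberg adjustment over all genes tested; a call is an adjusted p under 0.05. The P1 comparisons used the Car4- (Early and Late together) or Car4+ sums of all ages in 1 fit to estimate the spread, and the E18.5 comparisons 8 sums with the mouse as a block, since the sums of a mouse share its name and run. Up to 10 called genes per direction were named by fitted change, with groups that do not overlap, a mean of at least 50 CPM and a read in at least 25% of cells of the higher group; for sexes, the 5 largest folds. The rule left out predicted genes, Riken clones, ribosomal and mitochondrial genes and pseudogenes. Shares of cells used cells thinned to 50000 reads (11 of 2931 too shallow), with 95% Clopper-Pearson intervals; a count of 0 allows 3. Alternatives were DESeq2 1.42.0, RLE normalization, no filter, CD31-gate cells, thinned cells, limma 3.58.1 (log2 of mean CPM plus 1), sex or no mouse as block, the Early Car4- name alone, and leaving out each mouse. The cells, lists and markers were chosen with earlier results of these data known. The fit was also run on simulated counts with 1 fixed spread for all genes. That spread need not match these mice, so the run does not show how the fit performs on them.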

Additional observations from a re-analysis of the deposited data

Results flagged for a closer look

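Some values fell outside the comparisons. Egln3 reached 207.2 CPM in 1 cell with the embryonic name from the female P7 hyperoxia mouse, and Stab2 228 CPM in 1 such cell of the male P7 hyperoxia mouse, while the other cells with the name in later mice had no read of that gene. Over the 13 E18.5 cells named Car4-, all of the female mouse, Egln3 stood at 123 CPM and Ankrd37 at 762 CPM. Both were near the level of the female embryonic cells, whereas Stab2 stood at 0.157 CPM against 137 CPM in those cells. Of the 13 cells, 1 had 1981 CPM of Egln3. These 13 cells had a median of 1151 detected genes (899 to 3873), Ankrd37 was read in 7, Egln3 in 2 and Stab2 in 1. Ly6a, high in P1 Car4- capillaries, was read in 1 of the 13.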

How the results depend on the processing

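The number of calls depended on the tool and depth more than the direction of named genes, none of which reversed. Against P1 Car4- capillaries 74 calls became 572 with DESeq2 (207 higher, 365 lower) and 131 with thinned cells; leaving out 1 mouse gave 28 to 68, with 28 without the male and 36 without the female E18.5 mouse. With limma 22 of 57 calls were higher (38.6%, against 12.2%), and DESeq2 gave 36.2%. Against P1 Car4+ capillaries 108 became 534 with DESeq2, 211 without a filter, 195 thinned and 378 with limma (237 higher, 141 lower), and 58 to 258 without 1 mouse, the extremes without the male E18.5 and the female P1 mouse. Against proliferative EC 0 became 78 with DESeq2, 3 without a filter and 5 thinned. Against venous EC 21 became 1242 with DESeq2 (977 higher), 68 without a filter, 49 thinned and 36 with limma (18 higher), and RLE gave 20 with 60.0% higher against 71.4%. Against arterial EC I 2 became 1259 with DESeq2, 0 with RLE, 30 without a filter, 11 thinned and 1 with limma. Over all EC 80 became 689 with DESeq2 and 183 thinned, and 13 (without the male E18.5 mouse) to 199 (without the male P21 mouse). The cause was not tested. Shares of nonproliferative embryonic EC rose by construction to 76.1% and 80.4% of cells without proliferative names. Sex as a replicate block gave 60 calls against P1 Car4- capillaries, 114 against Car4+ and 105 over all EC; sex does not pair mice of different ages. Without the mouse as a block the E18.5 fits gave 0, 18 and 0 calls for proliferative, venous and arterial EC. Leaving out a mouse left the E18.5 fits no residual degrees of freedom. The venous and arterial sums rest on 11 to 14 cells a mouse.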
